A study of Mus musculus with 82 samples.

Results

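The comparison set the superior colliculus of 10 “SHAM + DREADD” mice against that of 10 “SHAM” mice, 20 of the 82 samples of the series. The members were the collicular libraries with these group names in their titles, and the description covers the 14721 autosomal genes that held over 5 reads in 2 or more of these 20 libraries. All mice were offspring of Vglut2-ires-Cre and Thy1-STOP-YFP parents, a cross that marks retinal ganglion cells (RGCs) with a yellow fluorescent protein, although the submitted genotype label reads WT. The series description puts their age at about 10 weeks. “SHAM + DREADD” mice received an AAV2/7 vector for hM3D(Gq) fused to mCherry in the left superior colliculus, driven by the CaMKIIα promoter, which is active mainly in excitatory neurons. “SHAM” mice received the null vector, which held mCherry alone behind the same promoter. Every mouse of both groups was given clozapine-N-oxide (CNO), the ligand of the receptor, 3 times a week over 5 weeks, and every right eye was injected with balanced salt solution in place of the microbeads that raise eye pressure in the “OHT” groups. By this design the groups differed in the vector and not in CNO, surgery or eye injection. The vector dose was not equal, since the paper gives a lower final titer for the DREADD vector than for the null vector. The tissue was taken 2 h after the last dose, and each sample was the lysate of 1 colliculus, so that cells with and without vector were read together.

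hM3D(Gq) is a muscarinic receptor changed so that it answers CNO and no longer acetylcholine. Through the G protein Gq it activates phospholipase C, releases calcium and makes a neuron fire more easily. Calcium entry in firing neurons activates kinases that phosphorylate CREB and ternary complex factors, and these transcription factors, already present in the cell, switch on immediate early genes (IEGs) within minutes and without new protein synthesis. Many IEGs encode transcription factors themselves, such as the Fos and Jun proteins that pair to form AP-1, the zinc finger proteins of the Egr family and the orphan nuclear receptors of the Nr4a family, and others encode proteins that act at synapses or end the signal.

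The libraries were of the QuantSeq type, which gives about 1 read per transcript near its 3′ end, and the deposited values were raw counts per gene. Total counts spanned 2429978 to 3899776 in “SHAM + DREADD” and 2088172 to 3075802 in “SHAM”. Levels are given as CPM, read counts scaled to a library of 1000000 reads with TMM factors. DEGs were genes whose adjusted p in the edgeR test did not exceed 0.1 and whose log2 fold change reached 0.5 in either direction, and a gene is said to be called where it met both in the quasi-likelihood fit, unless another fit is named. The sexes were unequal: Xist counts exceeded those of 4 Y-linked genes in 10 of 10 “SHAM + DREADD” libraries and in 2 of 10 “SHAM” libraries (replicates 7 and 8). A difference between the groups and a difference between the sexes can therefore be told apart only through these 2 libraries, and values with sex in the model are given for each DEG and each gene list that is described. “SHAM” replicate 1 carries a treatment label of the stimulated glaucoma group but a “SHAM” title and a “SHAM” column heading in the count table. It was kept as “SHAM”, and without it the DEG count was 8 in place of 7. No row of the table belongs to the transgene, since all rows are mouse genes.

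Few genes differed between the groups, and 5 of the 7 autosomal DEGs were IEGs. Of 15433 genes tested, 13 were DEGs (0.0842%), of which 6 were sex-linked, 5 on Y and 1 on X. The other 7 were autosomal and all were higher in “SHAM + DREADD” (0.0476% of 14721 autosomal genes): Fos, Fosb, Nr4a3, Egr1, Junb, 1700016P03Rik and Gm11942. No autosomal gene was called lower in this edgeR fit, while 721 (4.9%) had an unadjusted p under 0.05 and a lower level, against 676 (4.59%) with a higher level. DESeq2 called 1 gene lower and the likelihood ratio test of edgeR called 7. The log2 fold changes of all autosomal genes centred on 0, with a median of 0.0047 and 51.2% above 0, and 5% of the genes lay below -0.36 and 5% above 0.37. The DEGs lay outside this range by definition, since the threshold on the log2 fold change is larger in size than either limit. Fos was called in all 17 other settings of the test, and the other 5 IEG and host transcripts in 12 to 14 of them. Those with sex in the model were among the exceptions for all 5. Settings that changed only a threshold or the prior count kept the adjusted p-values of this fit. They were not separate tests. In 2 genes, Fosb and Nr4a3, every “SHAM + DREADD” library exceeded every “SHAM” library, and these were the only autosomal genes that did so (0.0136%), with 0 genes separated in the other direction.

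**Figure D1:**
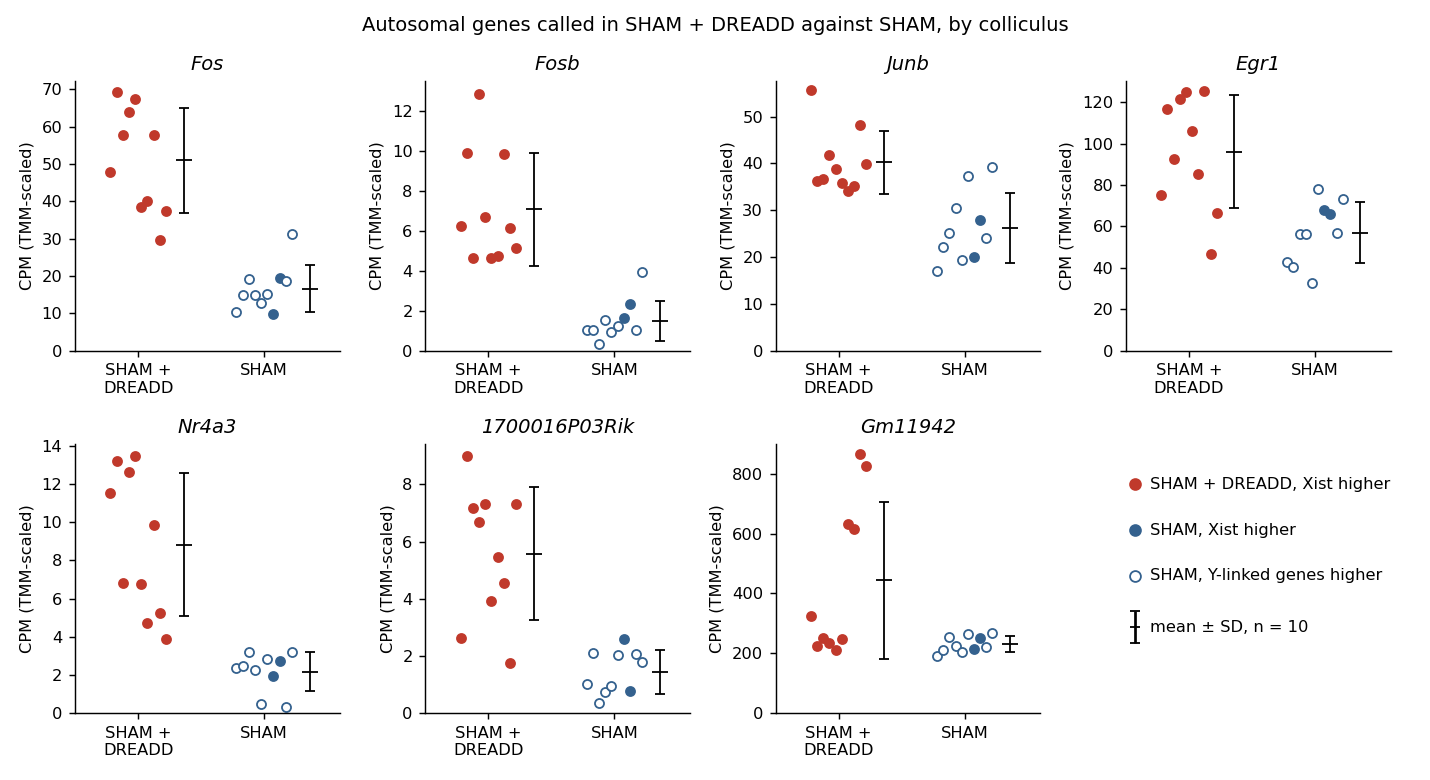
Levels of the 7 autosomal DEGs in each colliculus, in CPM after TMM scaling, with “SHAM + DREADD” on the left and “SHAM” on the right of each panel. Points are libraries, and the bar beside them is the mean with its SD (n = 10 each). Fosb and Nr4a3 do not overlap between the groups, and Gm11942 is raised in 4 “SHAM + DREADD” libraries.

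Among the AP-1 genes, 3 of 10 were DEGs, namely Fos, Fosb and Junb. Fos, the classic marker of recent neuronal activity, lies on chromosome 12 from 85473890 to 85477273 of mm10. It stood at a lowest, median and highest value of 29.8, 52.7 and 69.2 CPM in “SHAM + DREADD” and of 9.73, 14.98 and 31.3 CPM in “SHAM”. All but 1 stimulated library exceeded the highest “SHAM” library, and the means were 50.95 ± 14.1 and 16.7 ± 6.18 CPM (SD, n = 10 each). The log2 fold change was 1.62 (SE 0.17, adjusted p = 1.59e-07). Fosb, which also encodes a stable short protein form that builds up over repeated stimulation, lies on chromosome 7 from 19302696 to 19310051. Its values were 4.64, 6.19 and 12.9 CPM in “SHAM + DREADD” against 0.358, 1.14 and 3.92 CPM in “SHAM”, with no overlap. This gave the largest log2 fold change among the DEGs, 2.22 (SE 0.29, adjusted p = 1.87e-05). Junb, a partner of the Fos proteins, lies on chromosome 8 from 84974484 to 84978718 and rose less. It had 34.2, 37.7 and 55.7 CPM in “SHAM + DREADD” against 16.9, 24.6 and 39.2 CPM in “SHAM”, so that 4 stimulated libraries lay above the highest “SHAM” library (log2 fold change 0.62, SE 0.13, adjusted p = 0.0298).

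The other 7 AP-1 genes did not pass in the quasi-likelihood fit. Fosl2, a Fos relative that is induced more slowly, was nearest, with 17.6, 34.65 and 47.8 CPM in “SHAM + DREADD” and 13.5, 18.7 and 40.97 CPM in “SHAM” (log2 fold change 0.65, SE 0.16, adjusted p = 0.188). Its “SHAM” group was stretched by replicate 10, the library at 40.97 CPM. Fosl2 was called in 7 alternative fits, among them DESeq2 (adjusted p = 0.0709), the likelihood ratio test (adjusted p = 0.0484), limma-voom (adjusted p = 0.0450) and the fit without “SHAM” replicate 10 (adjusted p = 0.0075), and its adjusted p over the alternatives reached 0.577 in female libraries. Jun and Jund lay near 0 with the 2 groups alone in the model. Jun stood at 42.0 ± 8.00 CPM in “SHAM + DREADD” and 41.7 ± 10.0 CPM in “SHAM” (log2 fold change 0.01, SE 0.12), and Jund at 55.3 ± 8.35 and 55.4 ± 7.59 CPM (log2 fold change -0.01, SE 0.09). These last 2 values lay within 1 SE of 0, and their sign changed between settings. With sex in the model Jun stood at 0.43 (SE 0.21, adjusted p = 0.572) and Jund at 0.18 (SE 0.16, adjusted p = 0.787). Atf3, a stress-induced bZIP gene, stood at 0.28 (SE 0.20), Batf at 0.57 (SE 0.39), Batf3 at 0.11 (SE 0.53) and Fosl1 at -0.11 (SE 0.44). Batf, Batf3 and Fosl1 averaged between 1.14 and 2.35 CPM in either group, a few reads per library, and had the widest SEs of the AP-1 genes. The smallest change that could be detected at this level was not determined. In all, 8 of 10 AP-1 genes had a log2 fold change above 0, with a median of 0.43. With sex in the model the median was 1.06 and 10 of 10 were above 0, Atf3 standing at 0.95, Batf at 1.64, Batf3 at 1.17 and Fosl1 at 2.09 (SE 0.37, 0.82, 1.07 and 1.02), all without passing.

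Of the Egr and Nab genes, 5 were tested and 1 was called. Egr1, on chromosome 18, encodes a zinc finger factor that couples activity to later gene expression. It had 46.8, 99.3 and 126 CPM in “SHAM + DREADD” against 32.7, 56.6 and 78.1 CPM in “SHAM”, and 7 stimulated libraries exceeded the highest “SHAM” library (log2 fold change 0.76, SE 0.15, adjusted p = 0.0148). The lowest stimulated value, in replicate 9, lay within the “SHAM” range. Egr1 was not called by the robust test (edgeR) or in 1 fit of all 4 groups. Egr4 stood at 4.03 ± 1.96 CPM in “SHAM + DREADD” and 2.12 ± 1.10 CPM in “SHAM” (log2 fold change 0.91, SE 0.31, adjusted p = 0.355), a larger fold with a wider error at a low level. Nab2, a corepressor that Egr proteins induce and that binds them in turn, stood at 0.53 (SE 0.19, adjusted p = 0.365), Nab1 at 0.11 (SE 0.10) and Egr2 at 0.18 (SE 0.44). All 5 were above 0, with a median of 0.53, and with sex in the model all 5 remained so with a median of 0.49. Egr3 was not tested.

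The Nr4a genes encode nuclear receptors without a known natural ligand, whose activity follows from how much of them is made. Nr4a3, on chromosome 4 from 48045153 to 48086447, had 3.87, 8.33 and 13.4 CPM in “SHAM + DREADD” against 0.345, 2.42 and 3.22 CPM in “SHAM”. No “SHAM” library reached the lowest stimulated one (log2 fold change 2.00, SE 0.28, adjusted p = 5.86e-05). Nr4a1 had 4.81, 14.2 and 26.0 CPM in “SHAM + DREADD” against 3.11, 7.27 and 15.9 CPM in “SHAM”, and the groups overlapped in all but 3 stimulated libraries (log2 fold change 0.90, SE 0.23, adjusted p = 0.214). It was called in 5 alternative fits, by the likelihood ratio test (adjusted p = 0.0838) and limma-voom (adjusted p = 0.0974) among them, and its adjusted p ranged over 0.0302 to 0.764 in the alternatives that gave one. Nr4a2 stood at 6.54 ± 3.23 CPM in “SHAM + DREADD” and 4.52 ± 1.94 CPM in “SHAM” (log2 fold change 0.52, SE 0.28, adjusted p = 0.574). With sex in the model Nr4a1 stood at 0.54 (SE 0.40) and Nr4a2 at 0.52 (SE 0.51), and the median of the 3 genes was 0.54 in place of 0.90.

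**Figure D2:**
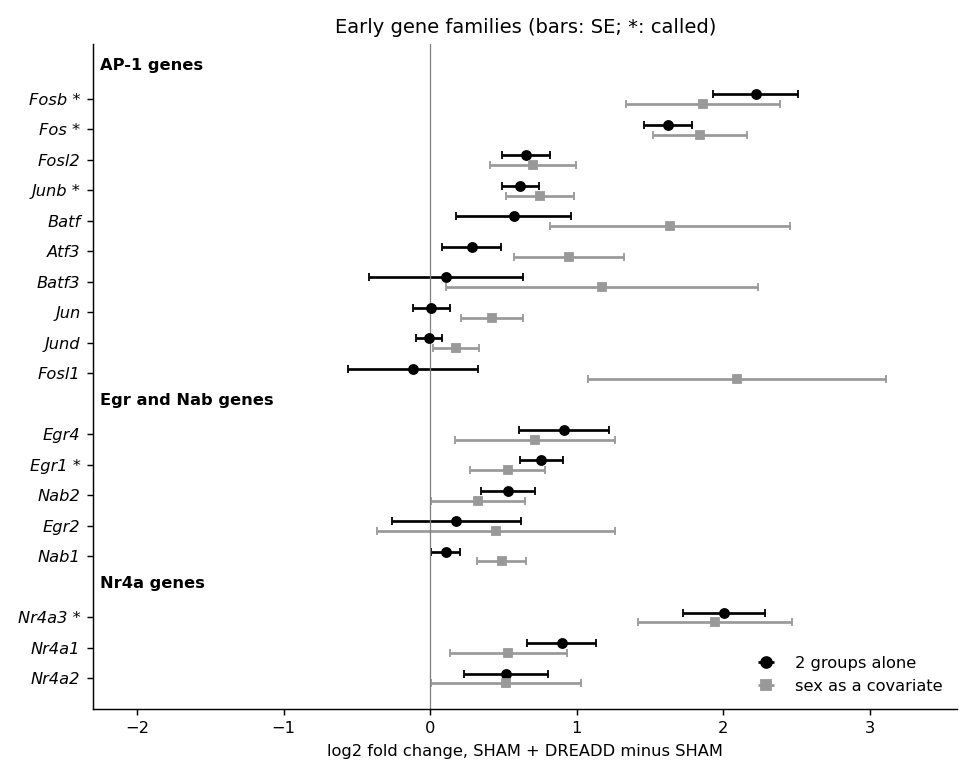
Log2 fold changes of “SHAM + DREADD” minus “SHAM” for the tested AP-1, Egr and Nab, and Nr4a genes, with bars of 1 SE. Circles are the fit of the 2 groups alone and grey squares the fit with sex as a covariate. Fosb, Nr4a3 and Fos are far to the right in both fits, Jun and Jund stand at 0.01 and -0.01 in the first, and the bars of the second are wider.

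The promoters of 4 of these DEGs are shown because CREB binds the letters TGACG, the shorter form of the cyclic AMP response element (CRE), and the promoters of IEGs are known for such elements. Each sequence is the stretch of 250 bases before the start of the RefSeq transcript on the gene's own strand, from build GRCm38.p6, with TGACG or its reverse complement CGTCA in capitals. Fosb spans chr7:19310046-19310295 on the minus strand, Fos chr12:85473640-85473889 on the plus strand, Nr4a3 chr4:48045055-48045304 on the plus strand and Junb chr8:84978749-84978998 on the minus strand.
Fosb: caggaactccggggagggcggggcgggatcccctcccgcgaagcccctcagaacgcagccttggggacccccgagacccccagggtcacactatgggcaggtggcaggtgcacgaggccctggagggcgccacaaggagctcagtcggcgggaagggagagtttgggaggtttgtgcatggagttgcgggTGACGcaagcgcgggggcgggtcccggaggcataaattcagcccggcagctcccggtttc
Fos: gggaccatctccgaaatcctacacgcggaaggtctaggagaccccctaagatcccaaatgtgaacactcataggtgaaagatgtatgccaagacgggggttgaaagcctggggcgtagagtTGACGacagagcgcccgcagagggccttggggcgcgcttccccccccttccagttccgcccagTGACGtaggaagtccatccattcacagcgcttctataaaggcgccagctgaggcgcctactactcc
Nr4a3: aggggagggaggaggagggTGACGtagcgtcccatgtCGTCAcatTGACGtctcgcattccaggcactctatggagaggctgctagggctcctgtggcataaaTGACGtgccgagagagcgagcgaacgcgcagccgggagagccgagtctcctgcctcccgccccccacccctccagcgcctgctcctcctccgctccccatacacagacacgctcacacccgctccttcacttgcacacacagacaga
Junb: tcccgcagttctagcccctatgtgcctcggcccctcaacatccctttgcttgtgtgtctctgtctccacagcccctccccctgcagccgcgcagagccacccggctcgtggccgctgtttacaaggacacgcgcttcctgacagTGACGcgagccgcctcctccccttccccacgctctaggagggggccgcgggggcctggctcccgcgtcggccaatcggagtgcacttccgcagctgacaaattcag
The Fosb stretch holds the letters once, beginning 60 bases before the start, and Junb once, at 106 bases. Fos holds them at 129 and 66 bases, and Nr4a3 at 231, 213, 205 and 147 bases, of which the match at 213 is on the opposite strand. These distances are from the RefSeq start. In the gene annotation used for the coordinates above, Nr4a3 begins at 48045153, inside the stretch shown, so part of that stretch lies within the annotated gene. On either strand, TGACG occurred in 17.9% of 27025 mouse promoters of this length, and in those of 10 of the 16 tested AP-1, Egr, Nab and Nr4a genes looked at, which did not include the DEG Egr1 or Fosl1. The full palindrome TGACGTCA, in 1.62% of all promoters, was in 0 of the 16, as were TGANTCA, the letters bound by AP-1 (6.87%), and the CArG box of serum response factor (1.4%). GCGNGGGCG, bound by Egr proteins, was in 4.65% of all promoters and in 5 of the 16, among them Fosb at 50 bases before the start, next to its TGACG and not overlapping it. A match of letters does not show that a factor binds there, and elements farther upstream lie outside this window.

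1700016P03Rik, another DEG, belonged to none of these families. It is a noncoding transcript on the plus strand of chromosome 11, from 75172560 to 75177633, and its 1 annotated transcript spans the genes of miR-212 (75173388 to 75173478) and miR-132 (75173682 to 75173747), which are both in an intron. Expression of this microRNA pair is known to be driven by CREB in active neurons. The level of the host was 1.75, 6.08 and 8.99 CPM in “SHAM + DREADD” against 0.358, 1.398 and 2.60 CPM in “SHAM”, and 9 stimulated libraries lay above the highest “SHAM” library (log2 fold change 1.91, SE 0.31, adjusted p = 8.42e-04). The mature microRNAs are printed because they share their seed, bases 2 to 8, given in capitals, through which a microRNA finds its targets. Their sequences are those of RefSeq for build GRCm38.p6, at chr11:75173443-75173464 and chr11:75173723-75173744, each 22 bases long.
mmu-miR-212-3p: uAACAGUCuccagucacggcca
mmu-miR-132-3p: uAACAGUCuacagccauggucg
The shared seed is AACAGUC. QuantSeq reads come from polyadenylated RNA, so the mature microRNAs themselves were not measured, and the values belong to the host transcript.

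Beyond the 3 families, other activity-regulated genes lay mostly above 0 without passing. Of 25 other early transcription regulators, 22 were above 0 (median log2 fold change 0.26), 10 of them at an unadjusted p under 0.05, and 0 were called, where 4.59% of all autosomal genes were higher at that p. Tiparp, an ADP-ribosyltransferase induced with the IEGs, had 31.0, 49.95 and 54.3 CPM in “SHAM + DREADD” against 24.4, 33.5 and 46.9 CPM in “SHAM” (log2 fold change 0.41, SE 0.11, adjusted p = 0.238). Crem, which gives rise to the CREB antagonist ICER, stood at 0.41 (SE 0.12, adjusted p = 0.289), with 8 stimulated libraries above the highest “SHAM” library. Maff, a small Maf protein, stood at 0.67 (SE 0.22, adjusted p = 0.329). Among 29 activity-induced effectors, proteins that change synapses or signaling in active neurons, 24 were above 0 (median 0.23), 9 at an unadjusted p under 0.05 with 1 lower, and the microRNA host was the 1 called. In the fit with sex, 21 of the 25 regulators (median 0.38) and 20 of the 29 effectors (median 0.26) were above 0. Tiparp was called in 1 alternative fit, the one without “SHAM + DREADD” replicates 7 to 10.

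Rgs2 and Bdnf were the effectors of next lowest p. Rgs2 speeds up GTP hydrolysis by Gq, the very protein hM3D(Gq) uses, and is induced by activity. It had 136, 149 and 178 CPM in “SHAM + DREADD” against 112, 119 and 146 CPM in “SHAM”, with 5 stimulated libraries above all “SHAM” libraries. Its adjusted p was 0.0906 but its log2 fold change of 0.30 (SE 0.07) was below the threshold of 0.5. Bdnf, the neurotrophin gene with activity-dependent promoters, had 57.3, 60.4 and 76.4 CPM in “SHAM + DREADD” against 35.5, 51.1 and 62.3 CPM in “SHAM” (log2 fold change 0.32, SE 0.09, adjusted p = 0.25). No stimulated library was as low as the median of “SHAM”. Of the 16 inhibitors that ERK signaling induces against itself, 12 were above 0 (median 0.21), 4 at an unadjusted p under 0.05, and 0 were called. Dusp1, a phosphatase of MAP kinases, had 19.4, 26.7 and 37.6 CPM in “SHAM + DREADD” against 10.7, 15.3 and 29.2 CPM in “SHAM” (log2 fold change 0.58, SE 0.15, adjusted p = 0.214). Dusp1 was called by DESeq2 (adjusted p = 0.0787), the likelihood ratio test (adjusted p = 0.0721) and limma-voom (adjusted p = 0.0772), and without “SHAM” replicate 6 or 10, and its adjusted p ranged over 0.0332 to 0.708 in the alternatives. Spry2 stood at 0.37 (SE 0.10, adjusted p = 0.25) and Dusp6 at 0.34 (SE 0.10, adjusted p = 0.289). Sex in the model left 12 of the 16 above 0 (median 0.17), with Dusp1 at 0.39.

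The components of the pathway itself did not follow the IEGs. Of 31 tested genes of Gq signaling, 10 were above 0 and 21 below (median -0.09), with 2 higher and 7 lower at an unadjusted p under 0.05 and 0 called. Itpr1, the calcium release channel opened by inositol trisphosphate, stood at 87.2 ± 13.1 CPM in “SHAM + DREADD” and 103 ± 8.75 CPM in “SHAM” (log2 fold change -0.23, SE 0.08, adjusted p = 0.362). Prkcb, a protein kinase C gene, stood at -0.18 (SE 0.06, adjusted p = 0.366). Of 34 genes of calcium and CREB signaling, 13 were above 0 (median -0.06), 1 was higher and 1 lower at an unadjusted p under 0.05, and 0 were called. They were Nfatc1, a calcineurin-dependent factor, at 0.78 (SE 0.25, adjusted p = 0.318), and Camk2a, the gene whose promoter drove both vectors, at 314 ± 54.8 CPM in “SHAM + DREADD” and 364 ± 36.6 CPM in “SHAM” (log2 fold change -0.21, SE 0.08, adjusted p = 0.416). In the fit with sex, 6 of the 31 and 11 of the 34 genes were above 0, with medians of -0.20 and -0.09.

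The study asked whether stimulation raised growth factors, so their genes were counted as well. Of 31 ligand genes tested, 21 were above 0 with a median of 0.05, 4 were higher and 1 lower at an unadjusted p under 0.05, and 0 were called. Besides Bdnf, the lowest p belonged to Inhba, a subunit of activin A that neuronal activity induces, at 15.5 ± 4.44 CPM in “SHAM + DREADD” and 10.2 ± 2.73 CPM in “SHAM” (log2 fold change 0.60, SE 0.16, adjusted p = 0.25), with 8 stimulated libraries above the highest “SHAM” library. Manf, a neurotrophic factor of the endoplasmic reticulum, stood at 0.23 (SE 0.10, adjusted p = 0.467). Of 31 receptor genes, 11 were above 0 (median -0.06), 3 were lower at an unadjusted p under 0.05 and 0 were called. Ntrk3, the receptor of neurotrophin 3, stood at -0.31 (SE 0.11, adjusted p = 0.361), Sort1, a sorting receptor for neurotrophins, at -0.21 (SE 0.07, adjusted p = 0.365), and Pdgfra at -0.28 (SE 0.12, adjusted p = 0.461). The medians with sex in the model were 0.02 for the ligands and 0.05 for the receptors, so that the receptor median changed its sign.

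Genes of stress, hormones and immunity lay slightly above 0, and 0 of them were called. Of 23 genes that respond to glucocorticoids, 21 were above 0 (median 0.29), 8 at an unadjusted p under 0.05 with 1 lower. Besides Dusp1, these were led by Plin4 at 1.34 (SE 0.50, adjusted p = 0.398), a lipid droplet gene with 28.4 CPM in 1 stimulated library and a group median of 2.86 CPM, against a highest “SHAM” value of 5.22 CPM. Of 25 heat shock and endoplasmic reticulum genes, 22 were above 0 (median 0.15), led by the chaperone gene Hspa5 at 629 ± 70.9 CPM in “SHAM + DREADD” and 513 ± 80.7 CPM in “SHAM” (log2 fold change 0.29, SE 0.08, adjusted p = 0.25). Of 29 genes of inflammation and interferon, 27 were above 0 (median 0.21), 5 at an unadjusted p under 0.05, with B2m, of the MHC class I light chain, at 0.25 (SE 0.09, adjusted p = 0.414). Of 18 genes of reactive glia, 17 were above 0 (median 0.21) and 1 had an unadjusted p under 0.05. That gene, Serpina3n, of a protease inhibitor secreted by reactive astrocytes, had 11.8, 19.3 and 45.0 CPM in “SHAM + DREADD” against 10.4, 11.5 and 31.1 CPM in “SHAM” (log2 fold change 0.86, SE 0.25, adjusted p = 0.272). It was called in 1 alternative fit, the one without “SHAM” replicate 6. With sex in the model the medians were 0.54 for inflammation and interferon, 0.65 for reactive glia, 0.32 for glucocorticoid response and 0.22 for heat shock and the endoplasmic reticulum. Of 19 clock genes, 8 were above 0 (median -0.04), with Per3 at -0.30 (SE 0.10, adjusted p = 0.329) and Per1, which is also an IEG, at 0.29 (SE 0.14, adjusted p = 0.504), and the median was -0.09 with sex in the model.

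Neuronal receptors and channels lay on the other side of 0, again with 0 called. Of 21 glutamate receptor subunits, 19 were below 0 (median -0.20) and 7 of them had an unadjusted p under 0.05, where 4.9% of all autosomal genes were lower at that p. Grin2b, an NMDA receptor subunit, stood at 90.1 ± 19.3 CPM in “SHAM + DREADD” and 115 ± 12.04 CPM in “SHAM” (log2 fold change -0.34, SE 0.10, adjusted p = 0.275). Of 16 subunits of GABA and glycine receptors, 12 were below 0 (median -0.06), 4 at an unadjusted p under 0.05 with 1 higher. Of 38 potassium channel genes, 27 were below 0 (median -0.13) and 9 had an unadjusted p under 0.05. Kcnj10, the inward rectifier by which astrocytes take up potassium, stood at -0.30 (SE 0.08, adjusted p = 0.269) and Kcnc2, a channel of fast-spiking neurons, at -0.27 (SE 0.08, adjusted p = 0.275). Neuropeptide genes were above 0 for 14 of 20 (median 0.11), with Adcyap1, of the activity-induced peptide PACAP, at 0.44 (SE 0.16, adjusted p = 0.391). In the fit with sex, 0 of 21 glutamate receptor subunits were above 0 (median -0.28), and the medians of the GABA and glycine receptor, potassium channel and neuropeptide lists were -0.12, -0.12 and 0.11.

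Markers of cell types moved along with these lists. Markers of inhibitory neurons were below 0 for 8 of 11 (median -0.28), 7 of these at an unadjusted p under 0.05 with 1 higher. The higher one was Pvalb, of an interneuron class, at 0.35 (SE 0.14, adjusted p = 0.438), and Sst and Npy were also above 0. The 7 lower ones included Gad1 and Gad2, which encode the enzymes that make GABA. Gad1 had 216, 297 and 344 CPM in “SHAM + DREADD” against 308, 346 and 435 CPM in “SHAM”, so that 7 stimulated libraries lay below the lowest “SHAM” library (log2 fold change -0.33, SE 0.08, adjusted p = 0.2), and Gad2 stood at -0.27 (SE 0.08, adjusted p = 0.27). Markers of excitatory neurons were below 0 for 12 of 15 (median -0.10), 4 of them at an unadjusted p under 0.05. The summed markers of inhibitory neurons ranged over 938 to 1356 CPM (median 1255) in “SHAM + DREADD” and over 1302 to 1558 CPM (median 1394) in “SHAM”, and those of excitatory neurons over 915 to 1240 (median 1163) and 1162 to 1289 CPM (median 1209). In a lysate, fewer cells of a type and less RNA per cell cannot be told apart. Leaving out “SHAM + DREADD” replicates 7 to 10 brought the median of the inhibitory list to -0.16, while sex in the model gave -0.30 for the inhibitory and -0.11 for the excitatory list.

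Glial and blood markers did not all share a direction. Oligodendrocyte markers were above 0 for 10 of 14 (median 0.09), 5 at an unadjusted p under 0.05, and summed to 4024 to 5864 CPM (median 4733) in “SHAM + DREADD” and 3348 to 4795 CPM (median 4045) in “SHAM”. Microglia markers were above 0 for 12 of 14 (median 0.23), 8 at an unadjusted p under 0.05, with sums of 855 to 1397 CPM (median 953) and 631 to 1123 CPM (median 888). Tmem119, a defining microglial gene, stood at 0.42 (SE 0.15, adjusted p = 0.365) and Csf1r, the receptor microglia depend on, at 0.24 (SE 0.10, adjusted p = 0.456). Astrocyte markers were above 0 for 6 of 15 (median -0.01), with sums of 4251 to 5908 CPM (median 5178) and 4686 to 5673 CPM (median 5114). Blood cell markers were above 0 for 6 of 7 (median 0.22), with sums of 318 to 1042 CPM (median 626) and 166 to 1305 CPM (median 499). Sex in the model gave medians of the oligodendrocyte, microglia, astrocyte and blood lists of 0.10, 0.43, -0.15 and 0.27. Among markers of neighbouring tissue, 5 of 11 of the cerebellum, 2 of 12 of the forebrain, 3 of 11 of the choroid plexus and ependyma and 3 of 10 of the inferior colliculus and pineal gland were not tested. The part of these shifts in the smaller differences above was not tested.

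**Figure D3:**
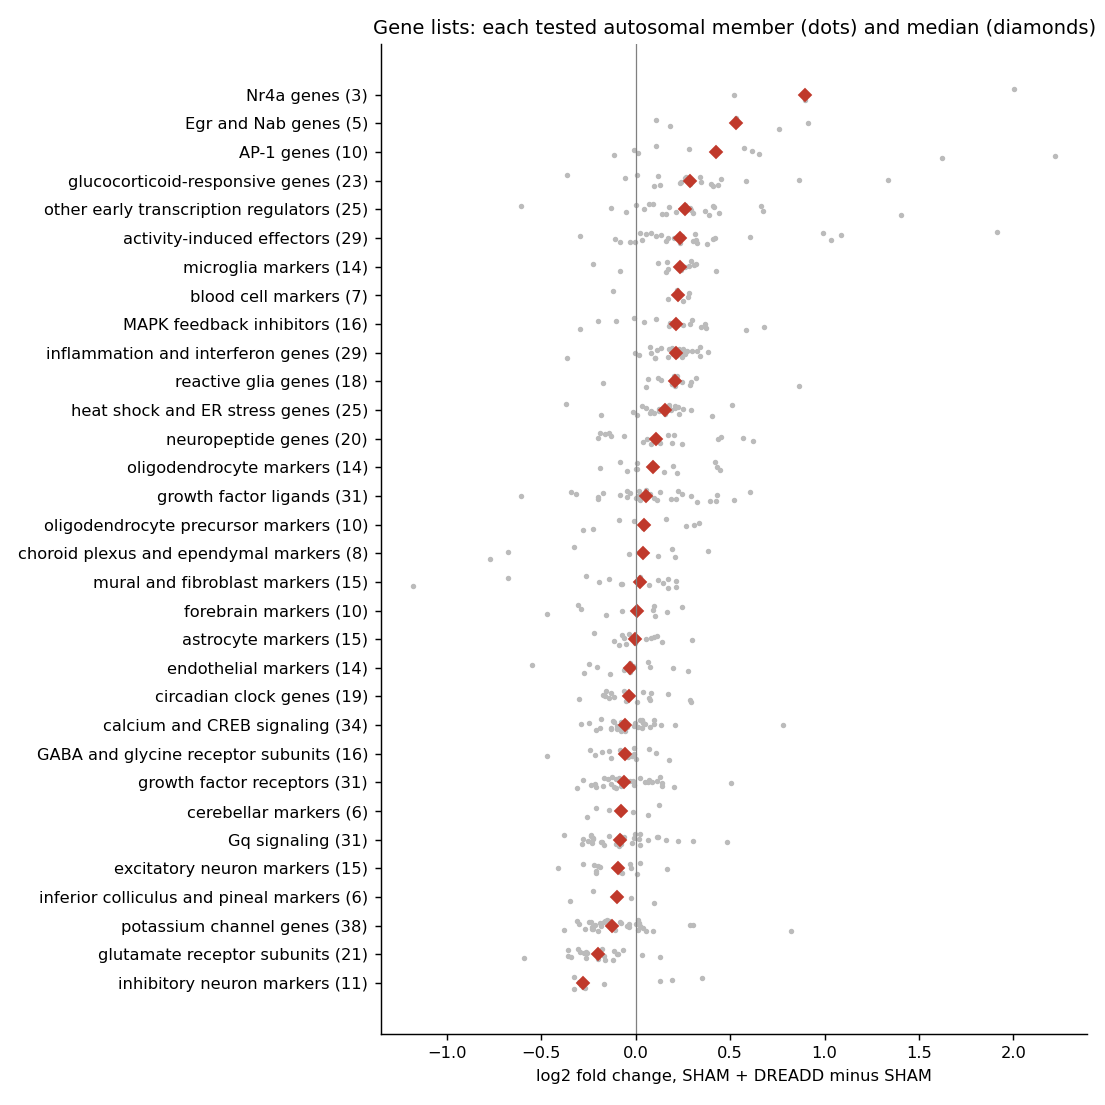
Log2 fold changes of “SHAM + DREADD” minus “SHAM” for each tested autosomal member of the 32 gene lists (grey dots) and the median of each list (red diamonds), ordered by median. Numbers in parentheses are tested members. The Nr4a, Egr and Nab, and AP-1 lists lie at the top with medians of 0.90, 0.53 and 0.43, and the markers of inhibitory neurons at the bottom with -0.28.

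Among named protein-coding genes that were not called, those of lowest p fell into no single family. Ermn, a myelin gene of mature oligodendrocytes, had 79.1, 92.4 and 139 CPM in “SHAM + DREADD” against 64.5, 73.7 and 84.5 CPM in “SHAM”, and 9 stimulated libraries exceeded the highest “SHAM” library. It passed on its adjusted p of 0.0298, and its log2 fold change of 0.43 (SE 0.09) fell short of the threshold. At an adjusted p of at most 0.1 alone, 10 autosomal genes passed (0.0679%), the 7 DEGs with Ermn, Rgs2 and Igsf3. Igsf3, of an immunoglobulin superfamily membrane protein, was the 1 lower gene among these, with 35.9, 59.9 and 72.1 CPM in “SHAM + DREADD” against 60.9, 77.1 and 98.5 CPM in “SHAM” (log2 fold change -0.47, SE 0.10, adjusted p = 0.0586). Next on the higher side were Emb at 0.36, Bbox1 of carnitine synthesis at 0.93, Trmt10a of tRNA methylation at 0.47, the myelin gene Mobp at 0.44 and the mitochondrial ribosomal gene Mrps6 at 0.34, with adjusted p between 0.113 and 0.19. On the lower side were Ncan, of a brain proteoglycan, at -0.41, Cacna1b, of the N-type calcium channel, at -0.46, Dcbld1 at -0.66, Reln, of the secreted protein reelin, at -0.52 and Ephb1, of an ephrin receptor, at -0.36, with adjusted p between 0.154 and 0.201. Some of these were called in alternative settings, Bbox1 in 6, Igsf3 and Reln in 4 each, Dcbld1 in 3, Trmt10a in 2, and Ermn, Rgs2 and Cacna1b in 1 each. For Ermn and Rgs2 this setting was the same fit with the fold threshold dropped, which was also among the settings of Igsf3.

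Gm11942 stood apart from the other DEGs. It is a processed pseudogene on chromosome 4, from 32964888 to 32965232. The authors discarded reads with several alignments, but reads of similar copies may still be counted here. “SHAM + DREADD” replicates 7 to 10 held it at 613 to 865 CPM and replicates 1 to 6 at 213 to 326 CPM, while “SHAM” lay between 192 and 270 CPM. The log2 fold change of 0.93 (SE 0.21, adjusted p = 0.077) thus came from 4 libraries, and without them, left out after their values were seen, it was 0.11 (adjusted p = 0.774). The RGC libraries with the same group and number showed the same split, with 9.42 to 20.8 CPM in replicates 7 to 10, 0 to 1.06 CPM in replicates 1 to 6 and 0 to 1.98 CPM in “SHAM”. Within the sham groups, the same 4 replicate numbers were thus high in both tissues. In the colliculi of the OHT groups, 2 of 10 “OHT + DREADD” and 8 of 11 “OHT” libraries exceeded the highest “SHAM” library. The tissues did not match in every OHT mouse. “OHT + DREADD” replicate 10 had 462 CPM in the colliculus and 0 CPM in the RGCs, and “OHT” replicate 5 had 262 and 11.1 CPM. “OHT” replicate 10, the highest colliculus of these groups at 775 CPM, had 13.7 CPM in the RGCs. The cause of the high levels was not tested.

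In “SHAM + DREADD” replicates 7, 8, 9 and 10, Fos stood at 40.003, 57.7, 29.8 and 37.4 CPM. The group as a whole spanned 29.8 to 69.2 CPM. Without these 4 libraries the other 6 DEGs were still called, with Fos, Fosb and Nr4a3 among them, and the DEG count was 10, of which 9 were higher and 1 lower.

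Because the sexes were unequal, each DEG was also set against the female libraries. With sex as a covariate, and with male libraries left out, the “SHAM + DREADD” group was in effect compared with “SHAM” replicates 7 and 8, and 2 genes were called in either fit (0.0136% of 14721 genes and 0.0139% of 14385 genes), Fos and a predicted gene that was lower. Fos kept a log2 fold change of 1.84 (SE 0.32, adjusted p = 0.0142), and the 2 female “SHAM” libraries had 9.73 and 19.4 CPM, below every stimulated library. Fosb stood at 1.86 (adjusted p = 0.386), with 1.62 and 2.33 CPM in the female “SHAM” libraries, and Nr4a3 at 1.94 (adjusted p = 0.386), with 1.95 and 2.72 CPM. Both lay below the lowest stimulated libraries, at 4.64 and 3.87 CPM. Junb stood at 0.75 (adjusted p = 0.404), with 20.1 and 27.9 CPM in the female “SHAM” libraries and at least 34.2 CPM in stimulated ones. 1700016P03Rik stood at 1.67 (adjusted p = 0.409), with 2.60 and 0.776 CPM. Egr1 stood at 0.53 (adjusted p = 0.556), against 0.76 without sex in the model, and the female “SHAM” libraries, at 67.8 and 65.9 CPM, lay above the “SHAM” median of 56.6 CPM. Gm11942 stood at 0.93 (adjusted p = 0.494), with 213 and 252 CPM in the female “SHAM” libraries. Across all 41 colliculi, the difference of females minus males within groups was 0.35 for Egr1 (adjusted p = 0.46), 0.27 for Fos (adjusted p = 0.724), 0.14 for Fosb (adjusted p = 0.928), 0.53 for Nr4a3 (adjusted p = 0.529) and 0.06 for Junb (adjusted p = 0.945), where 41 autosomal genes passed an adjusted p of 0.1 (0.266%). “SHAM + DREADD” held no male library, so these differences came from the other groups. The model also took them as the same in stimulated and unstimulated mice, so they do not show the sex difference under stimulation. The values of 1700016P03Rik and Gm11942 are not given here.

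The colliculi of “OHT + DREADD” and “OHT” mice shared no library with these groups and held 5 female and 5 male stimulated mice. In their own fit, 15 of 14969 autosomal genes were DEGs (0.1%), and 13 of these were higher in “OHT + DREADD” (0.0868%). Fosb stood there at 7.85 ± 2.82 CPM in “OHT + DREADD” (SD, n = 10) and 1.49 ± 0.721 CPM in “OHT” (SD, n = 11), with a log2 fold change of 2.37 (edgeR, adjusted p = 1.78e-05). Fos had 59.96 ± 26.4 and 15.9 ± 8.27 CPM, at 1.91 (adjusted p = 3.89e-05). Nr4a3 stood at 1.62 (adjusted p = 0.0219), Egr1 at 0.88 (adjusted p = 0.0308) and 1700016P03Rik at 1.88 (adjusted p = 0.048), while Junb, at 0.57, did not pass (adjusted p = 0.413). Fosl2, Nr4a1, Dusp1 and Serpina3n, which did not pass the quasi-likelihood test in the sham mice but were called there in 1 to 7 alternative fits, were DEGs in the OHT mice, at 0.90, 1.302, 0.66 and 1.22 (adjusted p = 0.0118, 0.00871, 0.0189 and 0.00533). The test of the difference between the pairs, over all 41 libraries, gave an adjusted p of 0.826 to 0.971 for these 4 genes and of 0.886 to 0.995 for the 6 DEGs other than Gm11942.

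Within the OHT groups the sexes could be looked at apart. Fos stood at 73.4 ± 26.2 CPM in 5 female and 46.6 ± 20.9 CPM in 5 male “OHT + DREADD” colliculi, against 15.05 ± 7.86 CPM in 2 female and 16.04 ± 8.80 CPM in 9 male “OHT” colliculi (SD), so that the stimulated mean was the higher in either sex. Among “OHT + DREADD” colliculi, 1700016P03Rik stood at 7.94 ± 1.36 CPM in females and 3.67 ± 1.80 CPM in males. Nr4a3 stood at 10.9 ± 3.65 and 6.31 ± 5.38 CPM, and Egr1 at 126 ± 23.4 and 82.6 ± 38.8 CPM. Fosb had 8.60 ± 2.01 and 7.10 ± 3.52 CPM, and Junb 38.2 ± 4.46 and 38.7 ± 13 CPM. Whether the effect of stimulation differed between the sexes was not tested. With sex in the model of the OHT groups, Fosb stood at 2.34 (edgeR, adjusted p = 1.68e-04), Fos at 1.74 (adjusted p = 3.48e-04) and Nr4a3 at 1.38 (adjusted p = 0.048).

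For most named genes outside the IEG families the value in the OHT mice was near 0, and the tests of the difference between the pairs did not pass. Ermn, 0.43 in the sham mice, stood at -0.14 in the OHT mice (interaction, adjusted p = 0.448), Rgs2 at -0.08 (0.30 in the sham mice, adjusted p = 0.419), Igsf3 at 0.03 (-0.47 in the sham mice, adjusted p = 0.448) and Gad1 at 0.15 (-0.33 in the sham mice, adjusted p = 0.507). The medians of the glutamate receptor, potassium channel and inhibitory neuron lists in the OHT mice were -0.03, -0.03 and 0.05, against -0.20, -0.13 and -0.28 in the sham mice. In contrast, the glucocorticoid and the inflammation and interferon lists had medians of 0.49 and 0.26 in the OHT mice, with 23 of 23 and 28 of 29 members above 0. Over all autosomal genes the interaction passed an adjusted p of 0.1 for 6 of 15415 genes (0.0389%), 1 of them Gm11942, which stood at -0.82 in the OHT mice (interaction -1.77, adjusted p = 0.048).

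**Figure D4:**
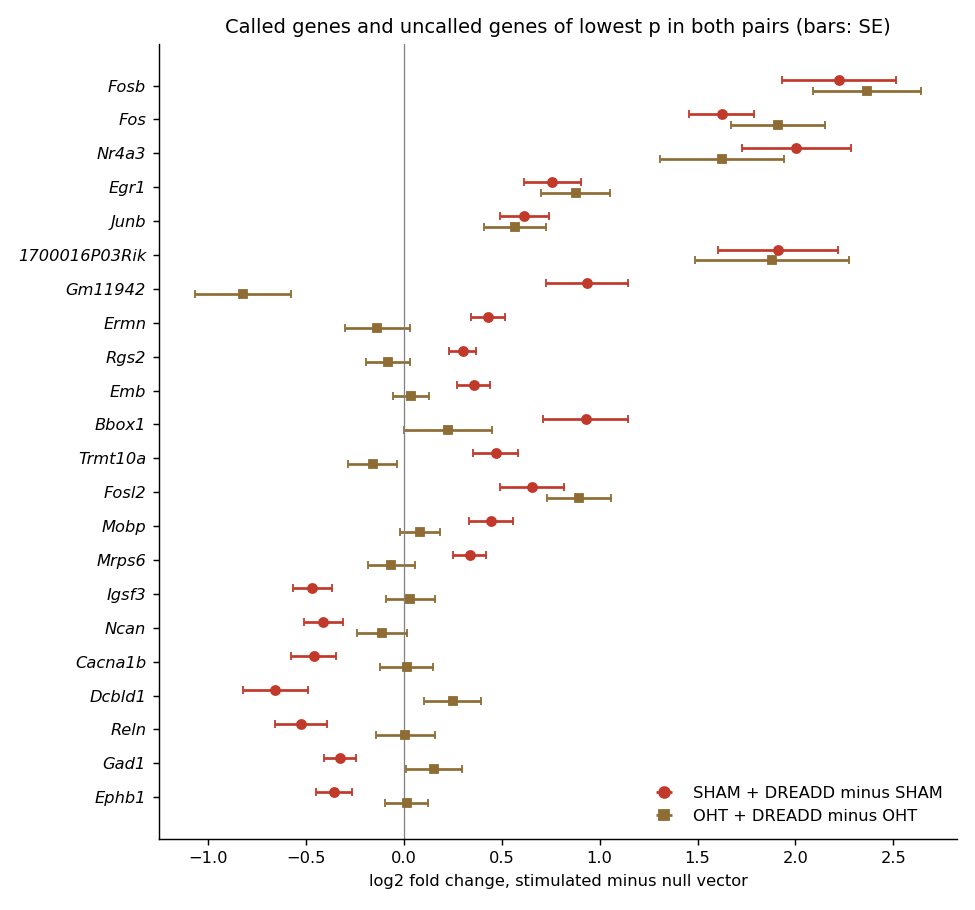
Log2 fold changes in the sham mice (“SHAM + DREADD” minus “SHAM”, red circles) and in the OHT mice (“OHT + DREADD” minus “OHT”, brown squares), with bars of 1 SE, for the 7 DEGs and 15 uncalled genes of lowest p. The 6 IEG and host transcripts and Fosl2 lie on the same side in both, Gm11942 lies on opposite sides, and most of the others are near 0 in the OHT mice.

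In the sorted RGCs of the same sham groups, which project to the colliculus and did not receive the vector, 0 of 16613 autosomal genes was a DEG at the study's stricter threshold for these cells, a log2 fold change of 1.3. Fos stood there at 25.7 ± 9.58 CPM in “SHAM + DREADD” and 20.03 ± 14.6 CPM in “SHAM” (SD, n = 10 each), a log2 fold change of 0.37 (SE 0.34, adjusted p = 1.00 from edgeR). Egr1 stood at 0.19 and Junb at 1.20 (adjusted p = 1.00 each), and Nr4a3 was not tested there. The RGCs were sorted from dissociated retinas and read with another library kit, so their levels are not set against those of the colliculi.

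Lastly, the DEGs were related to Fos within each group, over 12 relations with p-values from 100000 permutations adjusted over the family. In “SHAM + DREADD” (n = 10), log2(CPM + 1) of Nr4a3 followed that of Fos with r = 0.83 (permutation adjusted p = 0.0246) and rho = 0.88 (adjusted p = 0.0169), and Egr1 with r = 0.84 (adjusted p = 0.0246) and rho = 0.75 (adjusted p = 0.0419). Without the 2 libraries farthest from the Fos median, replicates 9 and 10, r was 0.78 and 0.62. Fosb (r = 0.62, rho = 0.61, permutation adjusted p = 0.108 and 0.114) and 1700016P03Rik (r = 0.67, rho = 0.67, adjusted p = 0.0645 and 0.0773) did not pass 0.05, with r = 0.69 and 0.68 without these 2 libraries. Junb did not rise with Fos among stimulated colliculi (r = -0.27, rho = -0.14, permutation adjusted p = 0.535 and 0.705), and r was 0.02 without replicates 9 and 10. The 2 stimulated libraries with the most Junb, replicates 1 and 9, at 55.7 and 48.1 CPM, had Fos at 47.7 and 29.8 CPM.

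In “SHAM” (n = 10) the order was another. Junb followed Fos with r = 0.74 (permutation adjusted p = 0.0427) and rho = 0.78 (adjusted p = 0.0317), and r was 0.54 without replicates 7 and 10, the libraries farthest from the Fos median. Fosb, Nr4a3 and Egr1, with r = 0.48, 0.24 and 0.42, did not pass (permutation adjusted p = 0.24, 0.535 and 0.309), nor did 1700016P03Rik, with r = -0.12 (adjusted p = 0.744). At the “SHAM” level of Fosb and Nr4a3, a few reads per library, counting error limits such a relation. Gm11942 followed Fos in “SHAM” with r = 0.78 and rho = 0.82 (permutation adjusted p = 0.0246 and 0.0233), and with r = 0.76 without replicates 7 and 10. In “SHAM + DREADD” its values fall into 2 separate clusters, so no pooled r is given there. The direction was the opposite one, since the 4 libraries with high Gm11942 had Fos at 29.8 to 57.7 CPM and the other 6 at 38.6 to 69.2 CPM. Whether the relations differ between the groups was not tested.

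**Figure D5:**
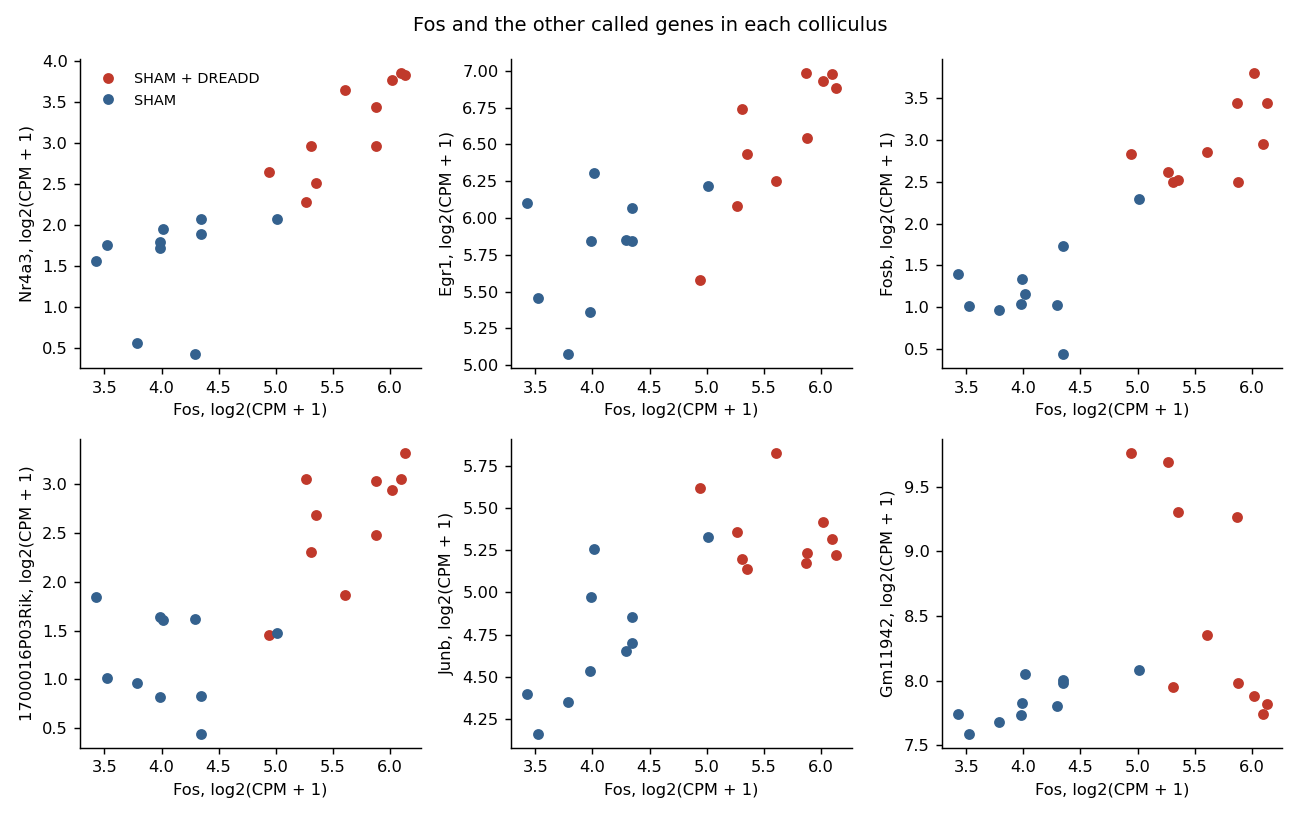
Level of each of the other DEGs against Fos, both as log2(CPM + 1), in each of the 10 “SHAM + DREADD” and 10 “SHAM” colliculi. Nr4a3 and Egr1 rise with Fos among stimulated colliculi (r = 0.83 and 0.84), Junb does not (r = -0.27), and Gm11942 forms 2 clusters among them.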

How the data were processed

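Superior colliculi of 10 “SHAM + DREADD” and 10 “SHAM” mice were compared. Groups came from the sample titles. Per the paper and the submitters' processing notes, the authors sequenced 3′ QuantSeq libraries, checked reads with FastQC 0.11.7, aligned them to mm10 with HISAT2, discarded reads with several alignments, used SAMtools 1.5 and counted reads per gene with HTSeq. The deposited values are raw counts with no normalization by the authors, for 43629 Ensembl genes (42462 with a GENCODE M21 symbol). The annotation release and the strand setting are not given in the sources used here, so overlapping and antisense genes cannot be told apart. The members of the comparison and all gene lists were chosen with earlier results of these data known.

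Tests were run in R 4.3.3 with edgeR 4.0.16 on genes that held over 5 reads in 2 or more libraries, as the study filtered. Libraries were scaled with TMM factors, dispersions came from estimateDisp, and the quasi-likelihood F test (glmQLFit, glmQLFTest) was 2-sided, with p-values adjusted after Benjamini and Hochberg over all genes tested. The prior count was 0.125, and the SE is the size of the log2 fold change over the square root of F. Sex-linked genes stayed in the fit and were left out of the description. The interaction of stimulation and OHT was fitted over 41 colliculi, and sex was called from Xist against 4 Y-linked genes. The text names every autosomal DEG, all tested AP-1, Egr, Nab and Nr4a genes, the 8 uncalled autosomal genes of lowest p in each direction other than predicted genes and pseudogenes, and the 3 members with the lowest p of every other list. Some of the last are described only through their list, and a few genes under this rule are not reported. In counts simulated for this comparison over 15146 genes, the test called 36%, 78%, 98% and 100% of genes changed by 0.5, 1, 1.5 and 2 on the log2 scale (50 genes each). The changed genes were drawn from those expected to hold over 5 reads per library, so these shares do not cover genes at lower levels. A change near the threshold was therefore often missed. The median estimate at a change of 0.5 was 0.491, under the threshold of 0.5, so the threshold alone removed many of these genes. The 36% thus does not by itself show a limit of depth. At a change of 1 the median estimate was 1.02, above the threshold, and what limited the 78% called there was not tested.

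Alternatives were RLE factors, library size alone, other filters, the likelihood ratio and robust tests, DESeq2 1.42.0, limma-voom (limma 3.58.1), 1 fit of all 4 groups, a replicate block, sex as a covariate, female libraries alone, autosomal genes alone, other thresholds, a prior count of 2 and leaving out each library. Leaving out “SHAM + DREADD” replicates 7 to 10 was added after seeing the data. Promoter and microRNA sequences are from RefSeq, build GRCm38.p6. Figures were drawn with Python 3.11.15 and matplotlib 3.10.9.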

Additional observations from a re-analysis of the deposited data

Results flagged for a closer look

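Fos stood at 31.3 CPM in “SHAM” replicate 10, far from the other “SHAM” colliculi, with a gap to the next library of 0.553 of the range of the group. The same library had the highest Fosb, Fosl2, Junb, Dusp1 and Gm11942 values of “SHAM”, and without it 11 autosomal genes were called, 9 of them higher and 2 lower. Dusp1 stood at 37.6 CPM in “SHAM + DREADD” replicate 5, with a gap of 0.527 of the range. The values of 26 groups of libraries were looked at in this way, and chance alone sets apart about 1 in 20 groups. The effect of stimulation on Gm11942 differed between OHT and sham mice, with a difference of -1.77 on the log2 scale (interaction over 41 colliculi in edgeR, adjusted p = 0.048). In each pair, the values of this pseudogene were high in some libraries and low in the others.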

How the results depend on the processing

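Of 7 autosomal DEGs, all higher, the number changed with the test and the samples. Called genes numbered 13 with no filter (10 higher, 3 lower), 4 with at least 10 reads in 10 libraries (4 higher), 25 by the likelihood ratio test (18 higher, 7 lower), 8 with library size alone (2 lower), 7 with DESeq2 (1 lower), 5 in 1 fit of all 4 groups (4 higher, 1 lower), 10 with no threshold on the log2 fold change (1 lower), 10 without “SHAM + DREADD” replicates 7 to 10 (1 lower), and 2 with sex as a covariate or in female libraries alone (1 higher, 1 lower in each). Over the 20 fits without 1 library each, 6 to 14 genes were called, 6 to 11 higher and 0 to 4 lower, with 14 without “SHAM” replicate 6, 12 without “SHAM + DREADD” replicate 5 and 11 without “SHAM” replicate 10. Fos and the other 5 IEG and host transcripts were called in all 20 of these, and Gm11942 in 8. DESeq2 gave no adjusted p for Fosb, Nr4a3 and 1700016P03Rik. With sex as a covariate, the interaction passed for 3 genes in place of 6, and 114 genes were called between “OHT + DREADD” and “OHT” in place of 15. Without “SHAM” replicate 1 the interaction passed for 4 genes.
Signs changed only among genes that were not called. Jun had a log2 fold change of -0.042 with library size alone and -0.015 by limma-voom, and -0.0701 to 0.0787 over the fits without 1 library. Fosl1 stood at 0.17 by limma-voom, 2.09 with sex as a covariate, 2.10 in female libraries and -0.390 to 0.0861 without 1 library, and Batf3 at -0.44 by limma-voom and -0.206 to 0.268 without 1 library. With sex as a covariate and in female libraries, Jund stood at 0.18 and 0.18, S100b at -0.055 and -0.052, Esam at 0.057 and 0.061, Ttr at 1.09 and 1.10, Zic1 at 0.057 and 0.060 and Zic2 at 0.19 and 0.19. Jund was -0.0501 to 0.0282 without 1 library. Without “SHAM + DREADD” replicates 7 to 10, S100a8 stood at -0.034, Tcf7l2 at -0.018, Zic1 at 0.070 and Zic2 at 0.061. Pearson's r of Fos and Junb in “SHAM + DREADD” was 0.024 without the 2 libraries farthest from the Fos median. In all, 4036 of 4158 values of named genes kept their direction and side of the threshold. The causes were not tested.
With the replicate number as a block, 7 genes were called, of which 6 were DEGs of the fit without the block. Libraries with the same number correlated at -0.0557 to 0.127 in their deviations from the group means, 1 of 10 pairs over 0.1, and 0 stimulated libraries correlated best with their own number, so the numbers do not pair the mice.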
